A study of Camellia sinensis and Camellia sinensis var. assamica with 18 samples.

Results

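A set of 50 loci annotated as gibberellin, brassinosteroid or cytokinin genes was followed through cold acclimation and de-acclimation in the leaves of tea plants (Camellia sinensis). Members were the loci whose description names gibberellin, DELLA, brassinosteroid, brassinazole, cytokinin, a two-component response regulator or a histidine-containing phosphotransfer protein, and whose FPKM (a level scaled to transcript length and library size) was at least 1 in at least 3 of the 18 libraries. The description matched 89 of 41021 loci, of which 50 were members and 39 lay under the floor, and 29019 loci of the table passed the same floor. They comprised 18 gibberellin, 7 brassinosteroid and 24 cytokinin genes and 1 clock gene, PRR37, whose description matched the rule by name although it belongs to the circadian clock and not to cytokinin signalling.

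Tissue culture seedlings of the cold-tolerant cultivar 'Shuchazao' (SCZ) and of the cold-sensitive assamica cultivar 'Yinghong 9' (YH9) were sampled at 3 stages, with 3 libraries per cultivar and stage. The non-acclimated stage (NA) was day 0 at 25 °C in the light and 20 °C in the dark. The cold-acclimated stage (CA) was day 14, after 7 days with days at 10 °C and nights at 4 °C and a further 7 days with 4 °C days and 0 °C nights. The de-acclimated stage (DA) was day 21, after 7 days back at the starting temperatures. Each cultivar was kept at every stage, so that the 6 groups are SCZ_NA, SCZ_CA, SCZ_DA, YH9_NA, YH9_CA and YH9_DA. Stage and plant age changed together in this design, so the CA or DA treatment and up to 21 days of growth cannot be told apart. The labels do not say which libraries came from separate plants or cultures, so the p-values measure the spread between these libraries, part of which may be technical.

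Gibberellins are growth hormones whose active forms are made by GA 20-oxidases and GA 3-oxidases and inactivated by GA 2-oxidases, and they act by removing DELLA proteins, nuclear repressors of growth. Brassinosteroids are steroid hormones perceived at the cell surface by a receptor with its co-receptor BAK1, and BZR1 is a transcription factor through which they act. Cytokinins are released in active form by LOG enzymes and degraded by cytokinin dehydrogenases (CKX), and their signal passes from histidine kinase receptors through histidine-containing phosphotransfer proteins to DNA-binding response regulators, while short response regulators that lack a DNA-binding domain damp it. In Arabidopsis, inactivation of gibberellin and build-up of DELLA proteins are known as part of growth restraint in the cold.

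Libraries held 47291392 to 78305612 estimated counts (median 60022640.5). The SCZ replicates were less alike than those of YH9, with mean correlations across loci to the other libraries of the same group of 0.887 to 0.937 in SCZ and 0.949 to 0.969 in YH9, and loci are not independent replicates. SCZ_NA replicate 1 was the library that correlated more closely with a library of another group (r = 0.917) than on average with its own (r = 0.890), and SCZ_CA replicate 2 had the lowest mean correlation. Several results that rest on either library are given with and without it. The leaf label was checked against the mesophyll markers (chlorophyll a-b binding proteins and Rubisco small subunits). The 22 loci matched as such, 20 of which passed the floor, summed to at least 1635.8 FPKM in every library, while root markers summed to at most 7.27 FPKM. A locus was called when edgeR's Benjamini-Hochberg adjusted p, taken over all 29019 loci, was under 0.05 and the change was at least 2-fold. Fold changes come from scaled counts, on the log2 scale, and can differ from the ratio of the FPKM levels printed beside them.

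In SCZ_CA vs. SCZ_NA, 6 members rose and 12 fell, which is 36% of the 50 members, against 34.1% of all loci tested (15% higher and 19.1% lower). In YH9_CA vs. YH9_NA, 9 members rose and 12 fell, 42% of the members against 25.8% of all loci (11.7% higher and 14.2% lower). The share of members called in SCZ was thus close to the background, and that in YH9 above it, with no test of either difference. The YH9 count came nearer to the background with 1 library less, at 12 members (24%, against 21.7% of all loci) without YH9_NA replicate 2, 13 (26%, against 21.7%) without YH9_CA replicate 2 and 13 (26%, against 21.8%) without YH9_CA replicate 3. The median log2 fold change of the members was -0.28 in SCZ and -0.48 in YH9, beside -0.06 and -0.01 over all loci. Of the 27 members called in at least 1 cultivar, 5 rose in both (GA 20-oxidase CSS052891, GA 2-oxidases CSS043579 and CSS025179, BPG2 CSS019742 and response regulator ORR21 CSS048546) and 7 fell in both (GA 2-oxidase CSS038297, DELLA CSS050751, GA-regulated CSS034886, LOG CSS045690, CKX7 CSS037773, CKX5 CSS038372 and phosphotransfer protein CSS035732). None was called in opposite directions in SCZ and YH9, and 15 passed in 1 cultivar alone, which does not show that the cultivars differed. Of the 7 that fell in both, 3 (CSS034886, CSS038372 and CSS035732) reached 1 FPKM in no CA library and are members through the other stages, so that a low CA level was part of their choice and their fall is a description. Among the 44 members with a CA library at the floor, 6 rose and 9 fell in SCZ_CA vs. SCZ_NA, 9 rose and 9 fell in YH9_CA vs. YH9_NA, and 4 fell in both.

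In bulk leaf samples, fewer cells of a type and less RNA per cell cannot be told apart. Of the 20 mesophyll markers at the floor, 16 fell in each of the CA vs. NA comparisons and 1 rose in YH9. The shares of all loci, for this and the marker counts below, were 15% higher and 19.1% lower in SCZ. In YH9 they were 11.7% higher and 14.2% lower. Sums of markers are over all matched loci, also those under the floor. The 22 matched mesophyll loci summed to 1635.8 to 6949.8 FPKM in SCZ_CA, against 24701.5 to 29963 FPKM in SCZ_NA. In YH9_CA they summed to 5706.2 to 6584.3 FPKM, against 20587.4 to 28471.4 FPKM in YH9_NA. Among the 18 loci listed as shoot meristem markers, matched by names such as knotted, WUSCHEL or CLAVATA, 7 fell in each cultivar. Matched by name alone, they need not be specific to the meristem. Of the 5 dividing-cell markers at the floor, 2 rose and 1 fell in SCZ, and 2 rose and 0 fell in YH9. The 10 matched dividing-cell loci summed to 129.2 to 152.4 FPKM in SCZ_CA, against 55.1 to 90.3 FPKM in SCZ_NA. In YH9_CA they summed to 114.6 to 123.1 FPKM, against 78.4 to 84.2 FPKM in YH9_NA. Of the 3 guard cell and epidermis markers at the floor, 1 fell in each cultivar and 0 rose. The 11 matched loci of this kind summed to 0.287 to 2.31 FPKM in SCZ_CA, against 5.94 to 11.3 FPKM in SCZ_NA. In YH9_CA they summed to 0.746 to 1.91 FPKM, against 4.24 to 9.2 FPKM in YH9_NA. The part of these markers in the members' changes was not tested.

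**Figure D1:**
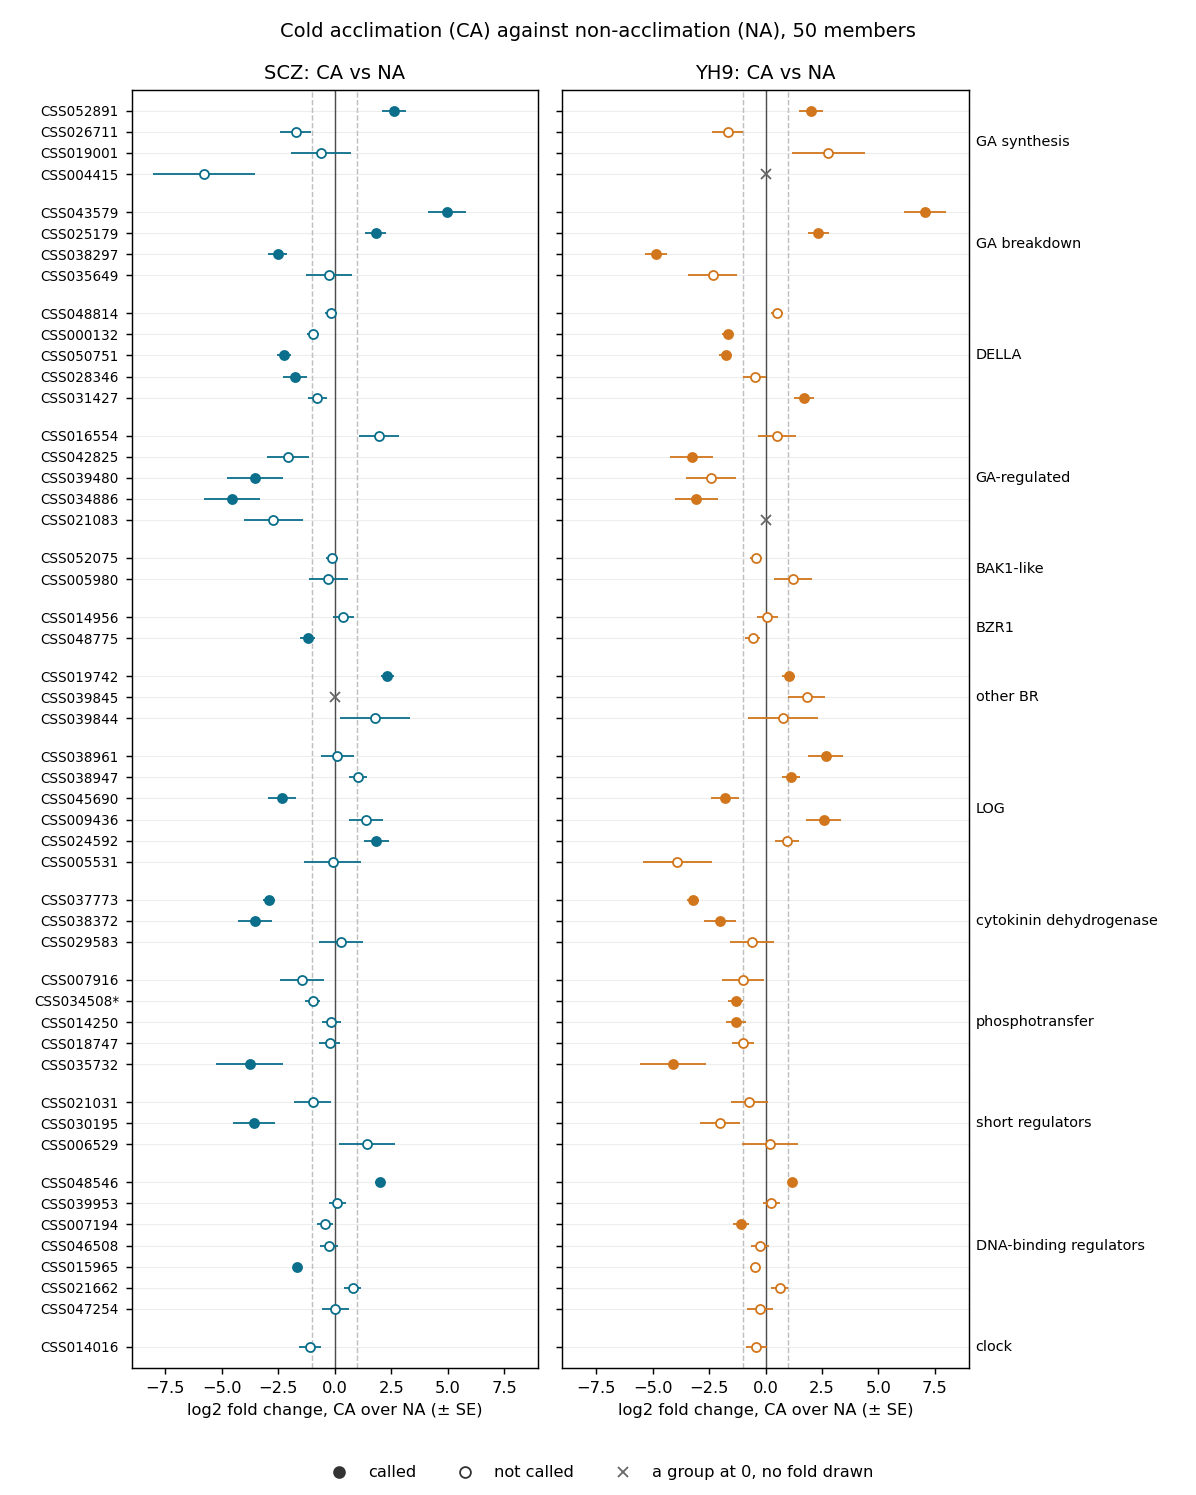
Log2 fold change (x axis) of each of the 50 members (rows, ordered by role) in SCZ_CA vs. SCZ_NA (left) and YH9_CA vs. YH9_NA (right), with bars of ± 1 SE, filled points for called members, open points for the others, and crosses where a group is at 0 and no fold is drawn; the dashed lines mark a 2-fold change. GA 2-oxidase CSS043579 lies farthest to the right in both panels, at 4.98 and 7.05, and CKX7 CSS037773 lies at -2.90 and -3.22, while 18 and 21 of the points are filled.

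Of the 4 gibberellin synthesis genes, the GA 20-oxidase CSS052891 rose at the CA stage in both cultivars, and the other members of this role were not called in either CA vs. NA comparison. CSS052891 had 102, 21.6 and 108 FPKM in the SCZ_CA libraries, against 6.45, 17.4 and 20.5 FPKM in the SCZ_NA libraries. In YH9, CSS052891 had 47.2, 36.1 and 44.9 FPKM in the YH9_CA libraries, against 12.4, 10.7 and 7.91 FPKM in the YH9_NA libraries. Every CA library was above every NA library of its cultivar, by 2.62 ± 0.546 (SE, edgeR adjusted p = 0.00148) on the log2 scale in SCZ and by 2.0 ± 0.534 (SE, edgeR adjusted p = 0.00978) in YH9, although SCZ_CA replicate 2 was only slightly above the highest SCZ_NA library. After de-acclimation the gene fell in both, with 12.9, 24.5 and 43.3 FPKM in the SCZ_DA libraries, against 102, 21.6 and 108 FPKM in the SCZ_CA libraries. In YH9, CSS052891 had 10.6, 8.27 and 8.31 FPKM in the YH9_DA libraries, against 47.2, 36.1 and 44.9 FPKM in the YH9_CA libraries. The groups overlapped in SCZ and not in YH9, with log2 fold changes of -1.72 ± 0.529 (SE, edgeR adjusted p = 0.019) in SCZ and -2.39 ± 0.542 (SE, edgeR adjusted p = 0.00402) in YH9. The SCZ call was lost without SCZ_CA replicate 3, at -1.251 log2 (edgeR adjusted p = 0.0886), without SCZ_DA replicate 1, at -1.39 log2 (edgeR adjusted p = 0.0756), or without SCZ_DA replicate 2, at -1.63 log2 (edgeR adjusted p = 0.0629). After de-acclimation SCZ was higher than YH9 by 1.75 ± 0.53 log2 (SE, edgeR adjusted p = 0.0215). The call was lost without SCZ_DA replicate 3, at 1.18 log2 (edgeR adjusted p = 0.132), or without YH9_DA replicates 1, 2 or 3 (edgeR adjusted p = 0.0507, 0.0706 and 0.0707).

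The GA 3-oxidases make the last step to active gibberellin, and neither passed the test at the CA stage. Both of them, CSS026711 and CSS004415, and GA 20-oxidase CSS019001 were chosen after their values were seen. CSS026711 had 3.04, 0.0948 and 1.98 FPKM in the SCZ_CA libraries, against 6.04, 5.51 and 7.08 FPKM in the SCZ_NA libraries. The log2 fold change was -1.74 ± 0.687 (SE, edgeR adjusted p = 0.0527). In YH9, CSS026711 had 0.969, 0.806 and 0.996 FPKM in the YH9_CA libraries, against 2.05, 3.51 and 3.25 FPKM in the YH9_NA libraries. Its log2 fold change was -1.68 ± 0.692 (SE, edgeR adjusted p = 0.0738). The CA values of both cultivars all lay under their NA values, and the adjusted p stayed over the threshold. CSS004415, annotated on scaffold 146 at bases 976367 to 978396 on the minus strand, had 0.953, 0.0653 and 2.64 FPKM in the YH9_DA libraries and was listed at 0 in all YH9_CA libraries, at least 66.2-fold higher in DA when YH9_CA is set to 3 counts over the group (edgeR adjusted p = 0.0339). That call was lost without any 1 of the YH9_CA libraries (edgeR adjusted p = 0.0808, 0.0876 and 0.0834) and without YH9_DA replicates 1 or 3 (edgeR adjusted p = 0.0531 and 0.0861). CSS004415 reached 1 FPKM in 4 libraries, of SCZ_NA, YH9_NA and YH9_DA alone. A low CA level was thus part of its choice, and its rise is a description. Another GA 20-oxidase, CSS019001, was close to 0 in the YH9_NA libraries, with 8.08, 1.22 and 0.103 FPKM in the SCZ_NA libraries, against 0, 0.102 and 0 FPKM in the YH9_NA libraries, and a difference of 6.46 ± 1.76 log2 (SE, edgeR adjusted p = 0.0141). This call rested on SCZ_NA replicate 1, without which it was 3.82 log2 (edgeR adjusted p = 0.0922), and it was also lost without YH9_NA replicate 1, at 6.06 log2 (edgeR adjusted p = 0.0565), or 3, at 5.88 log2 (edgeR adjusted p = 0.0572). Without YH9_NA replicate 2, YH9_NA is listed at 0 and the call held (edgeR adjusted p = 0.0197). CSS019001 reached 1 FPKM in SCZ libraries alone, so the member rule favoured this difference, which is a description.

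The 4 gibberellin 2-oxidases, which inactivate the hormone, moved in opposite directions at the CA stage, since 2 rose and 1 fell in each cultivar. For all loci the shares were 15% higher and 19.1% lower in SCZ, and 11.7% higher and 14.2% lower in YH9. The largest rise among all members was that of gibberellin 2 oxidase 1, CSS043579, with 283, 24 and 41.3 FPKM in the SCZ_CA libraries, against 2.96, 4.94 and 3.88 FPKM in the SCZ_NA libraries. In YH9, CSS043579 had 81.7, 25.9 and 38.4 FPKM in the YH9_CA libraries, against 0.489, 0.171 and 0.423 FPKM in the YH9_NA libraries. The CA and NA libraries did not overlap in either cultivar, and SCZ_CA replicate 1 stood far above the other SCZ_CA libraries. The log2 fold change was 4.98 ± 0.835 (SE, edgeR adjusted p = 2.85e-04) in SCZ and 7.05 ± 0.935 (SE, edgeR adjusted p = 7.42e-05) in YH9. Without SCZ_CA replicate 1 the SCZ value was 3.3 log2 (edgeR adjusted p = 5.6e-04), and without YH9_CA replicate 1 the YH9 value was 6.43 log2 (edgeR adjusted p = 2.84e-04). The difference between the cultivars' changes was not past the threshold, at -2.07 ± 1.04 log2 (SE, edgeR adjusted p = 0.30). At the DA stage the gene was back at 4.67, 1.3 and 4.48 FPKM in SCZ and 0.463, 0.318 and 0.441 FPKM in YH9, with log2 fold changes against the CA stage of -5.15 ± 0.843 (SE, edgeR adjusted p = 3.01e-04) and -7.05 ± 0.933 (SE, edgeR adjusted p = 8.8e-05). Without replicate 1 of SCZ_CA or of YH9_CA these were -3.48 log2 (edgeR adjusted p = 5.4e-04) and -6.43 log2 (edgeR adjusted p = 3.55e-04). Outside the cold, SCZ was higher than YH9, by 3.46 ± 0.81 log2 (SE, edgeR adjusted p = 0.00542) at the NA stage and 3.29 ± 0.802 log2 (SE, edgeR adjusted p = 0.00602) at the DA stage.

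Gibberellin 2-beta-dioxygenase 8-like, CSS025179, also rose in both cultivars, with 18.4, 3.65 and 18.5 FPKM in the SCZ_CA libraries, against 4.15, 3.61 and 4.95 FPKM in the SCZ_NA libraries. In YH9, CSS025179 had 43.2, 35.5 and 41.5 FPKM in the YH9_CA libraries, against 7.54, 10.8 and 4.9 FPKM in the YH9_NA libraries. SCZ_CA replicate 2 lay within the SCZ_NA range, while the YH9 groups did not overlap, and the log2 fold changes were 1.82 ± 0.458 (SE, edgeR adjusted p = 0.00525) in SCZ and 2.33 ± 0.465 (SE, edgeR adjusted p = 0.00154) in YH9. The cultivars then parted, with 25.9, 26.8 and 29.8 FPKM in the SCZ_DA libraries and 15.5, 11.4 and 11.7 FPKM in the YH9_DA libraries. The gene fell in YH9_DA vs. YH9_CA, with a log2 fold change of -1.8 ± 0.456 (SE, edgeR adjusted p = 0.00804), and was not called in SCZ_DA vs. SCZ_CA, at 0.82 ± 0.446 log2 (SE, edgeR adjusted p = 0.164), and the difference between these changes was 2.61 ± 0.636 log2 (SE, edgeR adjusted p = 0.0509), just over the threshold. This difference was called without SCZ_NA replicate 1, without SCZ_CA replicates 2 or 3, in both limma fits and in DESeq2. RLE scaling, no FPKM filter, a replicate block and the spread of only the groups compared did not call it. Nor did the fits without any 1 of the SCZ_DA, YH9_NA or YH9_CA libraries. CSS025179 was 1 of 2 members higher in SCZ_DA vs. SCZ_NA, by 2.64 ± 0.471 log2 (SE, edgeR adjusted p = 0.00877), a call kept with each library left out and under every alternative tried. At the CA stage SCZ was lower than YH9, at -1.34 ± 0.45 log2 (SE, edgeR adjusted p = 0.0327), which fell under 2-fold without SCZ_CA replicate 2, at -0.86 log2 (edgeR adjusted p = 0.0428), and was lost without YH9_CA replicates 1, 2 and 3 in turn (edgeR adjusted p = 0.0807, 0.0532 and 0.0648). At the DA stage SCZ was higher, at 1.28 ± 0.45 log2 (SE, edgeR adjusted p = 0.0446). This call was lost without SCZ_NA replicate 3, YH9_NA replicate 1 or any 1 of the SCZ_DA, YH9_CA or YH9_DA libraries, 11 in all (edgeR adjusted p up to 0.125).

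Gibberellin 2-beta-dioxygenase 1, CSS038297, moved the other way, with 1.76, 1.89 and 1.33 FPKM in the SCZ_CA libraries, against 14.5, 8.42 and 6.69 FPKM in the SCZ_NA libraries. In YH9, CSS038297 had 0.557, 0.766 and 0.279 FPKM in the YH9_CA libraries, against 17.5, 17.2 and 10.5 FPKM in the YH9_NA libraries. All CA libraries were below all NA libraries, with log2 fold changes of -2.53 ± 0.431 (SE, edgeR adjusted p = 3.24e-04) in SCZ and -4.84 ± 0.482 (SE, edgeR adjusted p = 7.92e-06) in YH9, and without SCZ_NA replicate 1 the SCZ value was -1.9 (edgeR adjusted p = 0.00119). After de-acclimation it rose to 9.88, 6.86 and 5.86 FPKM in SCZ_DA and 7.15, 7.36 and 5.98 FPKM in YH9_DA, by 2.0 ± 0.424 log2 (SE, edgeR adjusted p = 0.00198) and 3.5 ± 0.455 log2 (SE, edgeR adjusted p = 7.79e-05) against the CA stage. At the CA stage SCZ was higher than YH9, by 1.81 ± 0.431 log2 (SE, edgeR adjusted p = 0.00475), and the difference between the cultivars' CA vs. NA changes was 2.31 ± 0.591 log2 (SE, edgeR adjusted p = 0.0511), just over the threshold. That difference was called with RLE scaling, a replicate block, both limma fits and DESeq2, and without SCZ_NA replicate 1 or YH9_NA replicate 3. It was not called with no FPKM filter or with the spread of only the groups compared. Nor was it called without SCZ_NA replicates 2 or 3, YH9_NA replicates 1 or 2 or any 1 of the SCZ_CA, SCZ_DA and YH9_CA libraries. Gibberellin 2 oxidase 2, CSS035649, chosen after its values were seen, is annotated on scaffold 3317 at bases 56708 to 59295 on the minus strand. It was called in YH9_DA vs. YH9_CA alone, where it had 7.36, 4.52 and 6.27 FPKM in the YH9_DA libraries, against 0.236, 0.81 and 0.943 FPKM in the YH9_CA libraries. This gave a log2 fold change of 3.02 ± 1.1 (SE, edgeR adjusted p = 0.0496) that was lost when any 1 of 14 libraries was left out, namely each YH9 library, each SCZ_NA library, SCZ_CA replicate 1 and SCZ_DA replicate 2 (edgeR adjusted p of 0.0518 to 0.149). The 4 genes together summed to 29.6, 63.6 and 304.5 FPKM in SCZ_CA (lowest, median and highest library), against 16.8, 19.9 and 22.7 FPKM in SCZ_NA, and to 63, 81.1 and 125.7 FPKM in YH9_CA, against 20.2, 27.3 and 32 FPKM in YH9_NA. Without CSS043579 the other 3 summed to 5.59 to 22.3 FPKM in SCZ_CA, against 12.9 to 19.7 FPKM in SCZ_NA, and to 37.1 to 44 FPKM in YH9_CA, against 19.8 to 31.8 FPKM in YH9_NA, so the SCZ groups then overlapped.

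**Figure D2:**
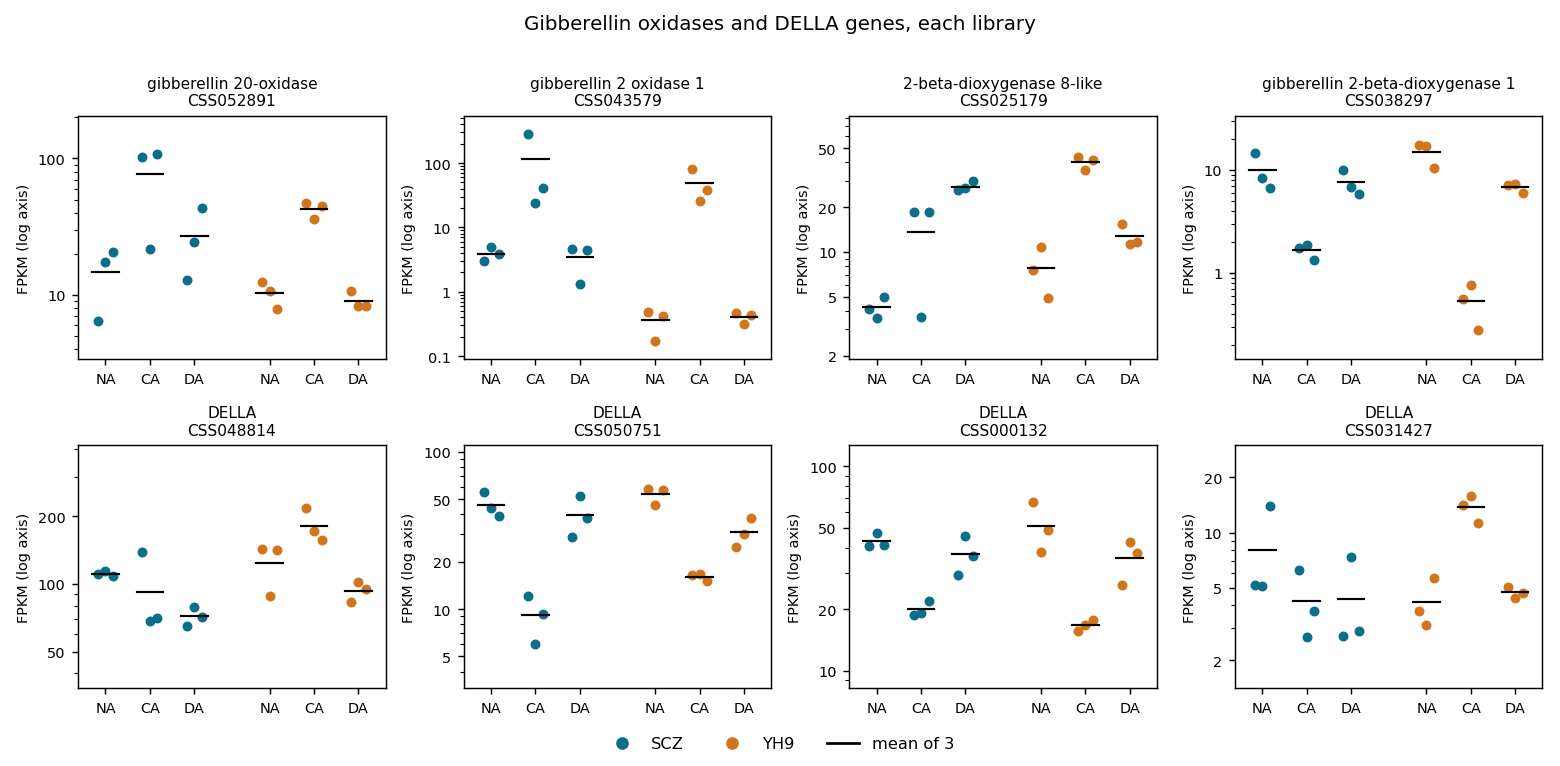
FPKM on a log axis (y) in every library of the 3 stages (x) for 4 gibberellin metabolism genes and 4 DELLA genes, with the SCZ stages left of the YH9 stages; points are libraries and lines the mean of 3. CSS052891, CSS043579 and CSS025179 are highest at the CA stage in YH9, CSS038297, CSS050751 and CSS000132 are lowest there, and CSS031427 is above all other YH9 libraries in YH9_CA, at 11.3 to 15.8 FPKM, while the SCZ_CA and SCZ_NA libraries overlap.

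The 5 DELLA genes, all named GA repressor DELLA in the annotation, did not move together. CSS050751 fell in both cultivars, with 12.1, 5.96 and 9.28 FPKM in the SCZ_CA libraries, against 55.6, 43.8 and 39.2 FPKM in the SCZ_NA libraries. In YH9, CSS050751 had 16.4, 16.7 and 15.1 FPKM in the YH9_CA libraries, against 57.7, 45.9 and 57.5 FPKM in the YH9_NA libraries. The groups were well apart, at -2.25 ± 0.307 log2 (SE, edgeR adjusted p = 5.5e-05) in SCZ and -1.77 ± 0.302 log2 (SE, edgeR adjusted p = 4.87e-04) in YH9. After 7 days of warmth it had 28.6, 52 and 37.9 FPKM in SCZ and 24.8, 29.9 and 38 FPKM in YH9, a rise of 1.92 ± 0.304 log2 (SE, edgeR adjusted p = 2.37e-04) against SCZ_CA, while the change against YH9_CA was not called, at 0.79 ± 0.295 log2 (SE, edgeR adjusted p = 0.0534). CSS000132, chosen after its values were seen, had 15.6, 16.7 and 17.7 FPKM in the YH9_CA libraries, against 66.7, 38.3 and 48.9 FPKM in the YH9_NA libraries, and fell, with a log2 fold change of -1.67 ± 0.259 (SE, edgeR adjusted p = 2.33e-04). In SCZ, CSS000132 had 18.7, 19.2 and 21.9 FPKM in the SCZ_CA libraries, against 40.8, 47.3 and 41.1 FPKM in the SCZ_NA libraries, also without overlap, and at -0.97 ± 0.254 log2 (SE, edgeR adjusted p = 0.00685) it stayed just under a 2-fold change.

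CSS031427 was 1 of 2 members whose CA vs. NA change differed between the cultivars by the test of the difference. It had 14.2, 15.8 and 11.3 FPKM in the YH9_CA libraries, against 3.75, 3.12 and 5.67 FPKM in the YH9_NA libraries. On the log2 scale this was 1.7 ± 0.428 (SE, edgeR adjusted p = 0.00698). In SCZ, CSS031427 had 6.25, 2.67 and 3.7 FPKM in the SCZ_CA libraries, against 5.14, 5.13 and 13.9 FPKM in the SCZ_NA libraries, overlapping groups with a log2 fold change of -0.78 ± 0.42 (SE, edgeR adjusted p = 0.148). The SCZ change minus the YH9 change was -2.48 ± 0.599 log2 (SE, edgeR adjusted p = 0.0407). This call was lost when any 1 of 12 libraries was left out, namely SCZ_NA replicate 3, SCZ_CA replicates 2 and 3 and each YH9 library, with an edgeR adjusted p of up to 0.107 (without YH9_NA replicate 2) and a smallest difference of -1.94 (without SCZ_NA replicate 3). It was also lost with no FPKM filter, with a replicate block and with the spread of only the groups compared. At the CA stage SCZ was lower than YH9, at -1.52 ± 0.426 log2 (SE, edgeR adjusted p = 0.0129). That call was lost without SCZ_CA replicate 2, at -1.253 log2 (edgeR adjusted p = 0.0511), and the YH9 level was back at 5.02, 4.39 and 4.7 FPKM in YH9_DA, at -1.7 ± 0.428 log2 (SE, edgeR adjusted p = 0.00767) against YH9_CA.

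CSS028346 fell in SCZ, with 7.95, 2.79 and 1.89 FPKM in the SCZ_CA libraries, against 8.87, 21.1 and 17.8 FPKM in the SCZ_NA libraries. That is a log2 fold change of -1.78 ± 0.526 (SE, edgeR adjusted p = 0.0136). The groups did not overlap, but SCZ_CA replicate 1 lay close to the lowest SCZ_NA library, and without it the value was -2.53 log2 (edgeR adjusted p = 0.00233), while without SCZ_CA replicate 3 the call was lost, at -1.49 log2 (edgeR adjusted p = 0.051). In YH9, CSS028346 had 12.7, 15.2 and 10.3 FPKM in the YH9_CA libraries, against 11.3, 9.97 and 32 FPKM in the YH9_NA libraries. The fold change was, on the log2 scale, -0.47 ± 0.511 (SE, edgeR adjusted p = 0.513). CSS048814, the DELLA gene with the highest mean FPKM, was not called at the CA stage in either cultivar, with 139, 68.3 and 70.3 FPKM in the SCZ_CA libraries, against 111, 114 and 108 FPKM in the SCZ_NA libraries. In YH9, CSS048814 had 218, 172 and 157 FPKM in the YH9_CA libraries, against 143, 88.7 and 141 FPKM in the YH9_NA libraries. All YH9_CA libraries were above the YH9_NA libraries and the SCZ groups overlapped, and after de-acclimation it fell in YH9 to 82.8, 102 and 94.5 FPKM, at -1.12 ± 0.268 log2 (SE, edgeR adjusted p = 0.00572), which came under 2-fold without YH9_CA replicate 1, at -0.95 log2 (edgeR adjusted p = 0.0288). Summed over the 5 genes, DELLA transcripts were at 98.9, 107.1 and 184.1 FPKM in SCZ_CA (lowest, median and highest library), against 220.0, 221.5 and 231.1 FPKM in SCZ_NA, and at 211, 236.2 and 276.5 FPKM in YH9_CA, against 186, 282 and 285.4 FPKM in YH9_NA. The SCZ groups did not overlap in this sum and the YH9 groups did. Without CSS048814, the most abundant, the other 4 summed to 30.6 to 45 FPKM in SCZ_CA, against 110.4 to 117.3 FPKM in SCZ_NA, and to 54.4 to 64.4 FPKM in YH9_CA, against 97.3 to 144 FPKM in YH9_NA, with no overlap in either.

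The 5 gibberellin-regulated proteins are short cysteine-rich peptides of the GASA family, whose genes were named as gibberellin-responsive. At the CA stage 2 fell in each cultivar and none rose, and at the DA stage against the CA stage 4 rose in SCZ and 2 rose in YH9. Over all loci, 19.1% in SCZ and 14.2% in YH9 fell at the CA stage. From CA to DA, 15.6% and 13.1% of all loci rose. CSS021083 and CSS034886 reached 1 FPKM in no CA library, so a low CA level was part of their choice. CSS042825 had 7.91, 3.83 and 4.86 FPKM in the YH9_CA libraries, against 43, 46.4 and 69 FPKM in the YH9_NA libraries, and fell in YH9 with a log2 fold change of -3.26 ± 0.953 (SE, edgeR adjusted p = 0.0161). The call was lost without YH9_CA replicate 2, at -3.06 log2 (edgeR adjusted p = 0.0634), or replicate 3, at -3.16 log2 (edgeR adjusted p = 0.0583). In SCZ, CSS042825 had 0.541, 5.1 and 0.627 FPKM in the SCZ_CA libraries, against 4.74, 11.7 and 13.2 FPKM in the SCZ_NA libraries, overlapping groups with a log2 fold change of -2.07 ± 0.926 (SE, edgeR adjusted p = 0.0844). It rose after de-acclimation, with 3.21, 87.5 and 16.9 FPKM in SCZ_DA and 131, 47.8 and 75.6 FPKM in YH9_DA, by 3.89 ± 0.989 log2 (SE, edgeR adjusted p = 0.00666) in SCZ and 3.77 ± 0.974 log2 (SE, edgeR adjusted p = 0.00888) in YH9. SCZ_DA and SCZ_CA overlapped, and the SCZ rise rested on SCZ_DA replicate 2, without which it was 2.15 log2 (edgeR adjusted p = 0.0596), while without SCZ_CA replicate 2 it was 5.6 log2 (edgeR adjusted p = 0.00174).

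CSS034886, a gibberellin-regulated protein 11-like gene chosen after its values were seen, fell at low levels in both cultivars, with 0, 0.0627 and 0 FPKM in the SCZ_CA libraries, against 0.296, 0.71 and 0.976 FPKM in the SCZ_NA libraries. In YH9, CSS034886 had 0.802, 0.178 and 0.275 FPKM in the YH9_CA libraries, against 3.55, 2.92 and 4.81 FPKM in the YH9_NA libraries. It is a member through its SCZ_DA, YH9_NA and YH9_DA levels, with no CA library at 1 FPKM. No CA library reached the lowest NA library of its cultivar, and the log2 fold changes were -4.57 ± 1.24 (SE, edgeR adjusted p = 0.00846) in SCZ and -3.07 ± 0.945 (SE, edgeR adjusted p = 0.0211) in YH9. Without SCZ_CA replicate 2, SCZ_CA is listed at 0 and the call held (edgeR adjusted p = 0.0105). The YH9 call was lost without YH9_CA replicate 2, at -2.68 log2 (edgeR adjusted p = 0.0837), or 3, at -2.89 log2 (edgeR adjusted p = 0.0742), and was -3.87 log2 (edgeR adjusted p = 0.0226) without replicate 1. CSS016554, gibberellin-regulated protein 1 and the most abundant of the family, was called in none of the 11 comparisons. Its SCZ_CA libraries had 44.4, 461 and 39 FPKM and its SCZ_NA libraries 19.8, 16.6 and 122 FPKM, a single high library in each group, with a log2 fold change of 1.96 ± 0.87 (SE, edgeR adjusted p = 0.0823). CSS039480, also chosen after its values were seen, fell in SCZ, with 0.0376, 0.165 and 0 FPKM in the SCZ_CA libraries, against 1.15, 1.44 and 0.192 FPKM in the SCZ_NA libraries. The log2 fold change was -3.52 ± 1.25 (SE, edgeR adjusted p = 0.0334). That call was lost without SCZ_NA replicates 1 or 2 or SCZ_CA replicates 1 or 3 (edgeR adjusted p = 0.0751, 0.0727, 0.0917 and 0.0936) and was -4.96 log2 (edgeR adjusted p = 0.0252) without SCZ_CA replicate 2. The pair CSS039480 and CSS021083 stayed at or below 8.42 FPKM in every library and were called in 3 comparisons each. Of these, CSS021083 (chosen after its values were seen) had 4.41, 4.77 and 5.16 FPKM in the SCZ_DA libraries, against 0, 0.291 and 0.202 FPKM in the YH9_DA libraries, and was higher in SCZ by 4.9 ± 1.45 log2 (SE, edgeR adjusted p = 0.0215). Significance was lost without YH9_DA replicate 1, at 4.28 log2 (edgeR adjusted p = 0.0649), or 3, at 5.14 log2 (edgeR adjusted p = 0.0637), and the value was 5.56 log2 (edgeR adjusted p = 0.0494) without YH9_DA replicate 2. CSS021083 reached 1 FPKM in SCZ_NA and SCZ_DA libraries alone, so the member rule favoured this difference, which is a description.

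Of the 7 brassinosteroid members, BPG2 (CSS019742) rose in both cultivars at the CA stage, the BZR1 gene CSS048775 fell in SCZ, and the BAK1-like kinases were not called in either. BPG2, GTP-binding protein BRASSINAZOLE INSENSITIVE PALE GREEN 2, is known from Arabidopsis as a chloroplast protein needed for greening. It had 10.7, 7.54 and 11.1 FPKM in the SCZ_CA libraries, against 2.26, 1.75 and 2.32 FPKM in the SCZ_NA libraries. In YH9, CSS019742 had 2.27, 3.95 and 4.25 FPKM in the YH9_CA libraries, against 1.76, 1.58 and 1.68 FPKM in the YH9_NA libraries. The groups did not overlap in either cultivar, with log2 fold changes of 2.33 ± 0.295 (SE, edgeR adjusted p = 2.97e-05) in SCZ and 1.02 ± 0.285 (SE, edgeR adjusted p = 0.0128) in YH9, and their difference was 1.32 ± 0.40 (SE, edgeR adjusted p = 0.0919). The YH9 value lay at the 2-fold limit and its call was lost when any 1 of 7 libraries was left out, with log2 fold changes of 1.0, 1.0 and 1.0 without SCZ_NA replicate 1 and SCZ_CA replicates 2 and 3, 0.95 and 0.97 without YH9_NA replicates 2 and 3, and 0.91 and 0.87 without YH9_CA replicates 2 and 3. At the DA stage it fell to 4.58, 3.3 and 4.23 FPKM in SCZ_DA and 1.67, 1.8 and 1.53 FPKM in YH9_DA, at -1.47 ± 0.286 log2 (SE, edgeR adjusted p = 0.00113) and -1.21 ± 0.286 log2 (SE, edgeR adjusted p = 0.00532) against the CA stage. SCZ was higher than YH9 at the CA stage by 1.71 ± 0.288 log2 (SE, edgeR adjusted p = 4.15e-04) and at the DA stage by 1.45 ± 0.287 log2 (SE, edgeR adjusted p = 0.00139), with every SCZ library above every YH9 library at both stages.

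The BZR1 gene CSS048775 had 2.58, 7.59 and 2.7 FPKM in the SCZ_CA libraries, against 9.96, 12.4 and 9.85 FPKM in the SCZ_NA libraries. Its log2 fold change was -1.2 ± 0.337 (SE, edgeR adjusted p = 0.0103). SCZ_CA replicate 2 was the highest of its group, and without it the value was -1.87 log2 (edgeR adjusted p = 1.05e-04), while without SCZ_CA replicate 1 it came under 2-fold, at -0.91 log2 (edgeR adjusted p = 0.0387). In YH9, CSS048775 had 9.21, 9.05 and 11.2 FPKM in the YH9_CA libraries, against 15.7, 11.6 and 14.7 FPKM in the YH9_NA libraries. This gave a log2 fold change of -0.56 ± 0.333 (SE, edgeR adjusted p = 0.216). The other BZR1 gene, CSS014956, was called in no comparison, with 13.5, 35.2 and 6.67 FPKM in the SCZ_CA libraries, against 14.9, 16.7 and 13.9 FPKM in the SCZ_NA libraries and 12.8, 7.48 and 8.25 FPKM in the YH9_CA libraries, against 6.19, 8.7 and 12.1 FPKM in the YH9_NA libraries. The BAK1-like co-receptor gene CSS052075 differed between the cultivars at the DA stage, with 6.83, 6.29 and 5.77 FPKM in the SCZ_DA libraries, against 21.6, 19.1 and 19.7 FPKM in the YH9_DA libraries, and was lower in SCZ at -1.51 ± 0.26 log2 (SE, edgeR adjusted p = 4.99e-04), a call kept with each library left out. A further BAK1-like gene, CSS005980 (chosen after its values were seen) had means of 0.168 ± 0.165 FPKM in SCZ_DA and 1.56 ± 0.34 FPKM in YH9_DA (SD, n = 3 each) and was lower in SCZ at -3.03 ± 0.929 log2 (SE, edgeR adjusted p = 0.0229). The call did not hold without SCZ_DA replicate 2, at -3.02 log2 (edgeR adjusted p = 0.0646), or YH9_DA replicate 2, at -2.89 log2 (edgeR adjusted p = 0.0559), and the value was -4.05 log2 (edgeR adjusted p = 0.016) without SCZ_DA replicate 3. CSS005980 reached 1 FPKM in YH9_CA and YH9_DA libraries alone, so the member rule favoured this difference, which is a description.

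The locus annotated as brassinosteroid-regulated protein, CSS039845, was listed at 0 in all SCZ libraries. It had 0.0732, 0.547 and 0.711 FPKM in YH9_NA, 2.56, 1.03 and 1.12 FPKM in YH9_CA and 1.4, 0.692 and 1.04 FPKM in YH9_DA, all low levels. With SCZ set to 3 counts over each group, SCZ was at least 26.5-fold lower at the NA stage, at least 76-fold lower at the CA stage and at least 45.9-fold lower at the DA stage. The edgeR adjusted p was 0.00298, 8.01e-04 and 0.00132 at the NA, CA and DA stages, on 78, 208 and 155 estimated counts summed over the YH9 libraries of each stage. CSS039845 reached 1 FPKM in YH9_CA and YH9_DA libraries alone, so the member rule favoured these differences, which are a description. An absence of expression and an absence of reads that map to this reference locus cannot be told apart here. The other locus of that name, CSS039844, was just inside the floor, with 3 libraries at or over 1 FPKM, and was called in no comparison.

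**Figure D3:**
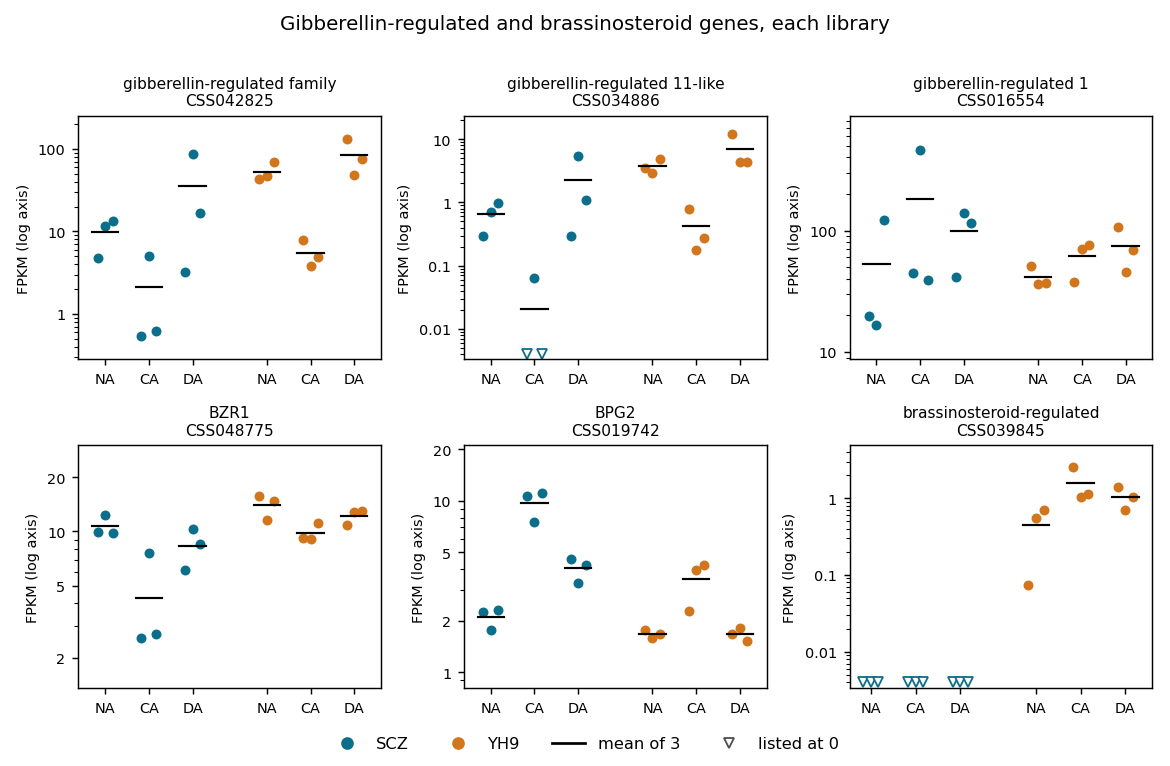
FPKM on a log axis (y) in every library of the 3 stages (x) for 3 gibberellin-regulated genes and 3 brassinosteroid genes, with the SCZ stages left of the YH9 stages; points are libraries, lines the mean of 3 and open triangles values listed at 0. The means of CSS042825 and CSS034886 are lowest at the CA stage in both cultivars, that of CSS019742 is highest there, and CSS039845 shows triangles in all SCZ libraries.

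Among the 6 LOG genes, whose enzymes turn cytokinin nucleotides into active cytokinin, 1 rose and 1 fell in SCZ_CA vs. SCZ_NA, and 3 rose and 1 fell in YH9_CA vs. YH9_NA. Among all loci, 15% rose and 19.1% fell in SCZ, and 11.7% rose and 14.2% fell in YH9. The LOG1-like gene CSS045690 fell in both, with 1.1, 1.3 and 1.93 FPKM in the SCZ_CA libraries, against 4.92, 13.2 and 7.78 FPKM in the SCZ_NA libraries. In YH9, CSS045690 had 4.23, 0.657 and 0.969 FPKM in the YH9_CA libraries, against 2.68, 7.89 and 10.1 FPKM in the YH9_NA libraries. The SCZ groups were apart and the YH9 groups overlapped through YH9_CA replicate 1, with log2 fold changes of -2.35 ± 0.628 (SE, edgeR adjusted p = 0.00759) in SCZ and -1.81 ± 0.617 (SE, edgeR adjusted p = 0.035) in YH9. Without YH9_CA replicate 1 the YH9 value was -3.08 log2 (edgeR adjusted p = 0.00153), and the call was lost without YH9_NA replicate 2 or 3 or YH9_CA replicate 2 or 3 (edgeR adjusted p = 0.0849, 0.115, 0.119 and 0.127). It rose in YH9 after de-acclimation to 14.6, 8.85 and 9.75 FPKM, by 2.33 ± 0.628 log2 (SE, edgeR adjusted p = 0.0111) against YH9_CA, which was 3.61 log2 (edgeR adjusted p = 8.19e-04) without YH9_CA replicate 1 and lost without replicate 3, at 2.0 log2 (edgeR adjusted p = 0.0501).

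The LOG5-like gene CSS038961 rose in YH9, with 2.18, 4.3 and 4.53 FPKM in the YH9_CA libraries, against 0.342, 0.523 and 0.834 FPKM in the YH9_NA libraries. On the log2 scale this was 2.66 ± 0.789 (SE, edgeR adjusted p = 0.0174), and the call was lost without YH9_NA replicate 1, at 2.44 (edgeR adjusted p = 0.0637), or 2, at 2.58 (edgeR adjusted p = 0.0583). In SCZ, CSS038961 had 33.4, 6.89 and 6.14 FPKM in the SCZ_CA libraries, against 3.65, 25.1 and 20.3 FPKM in the SCZ_NA libraries, scattered and overlapping, at 0.11 ± 0.725 log2 (SE, edgeR adjusted p = 0.925). Before the cold it was already higher in SCZ than in YH9, by 4.77 ± 0.859 log2 (SE, edgeR adjusted p = 7.67e-04), a call kept with each library left out, and it was higher again at the DA stage, with 7.82, 8.59 and 5.37 FPKM in the SCZ_DA libraries, against 0.124, 1.32 and 1.17 FPKM in the YH9_DA libraries. That is a log2 fold change of 3.18 ± 0.799 (SE, edgeR adjusted p = 0.00719). The LOG8-like gene CSS009436 rose in YH9, with 4.97, 8.22 and 6.09 FPKM in the YH9_CA libraries, against 0.517, 0.748 and 1.96 FPKM in the YH9_NA libraries. The fold change was, on the log2 scale, 2.58 ± 0.774 (SE, edgeR adjusted p = 0.0187). Its YH9 groups did not overlap, and the call was lost without YH9_NA replicate 1 or 2 or YH9_CA replicate 2 (edgeR adjusted p = 0.0716, 0.0705 and 0.0534) and was 3.25 log2 (edgeR adjusted p = 0.0179) without YH9_NA replicate 3, while its SCZ change was 1.38 ± 0.74 log2 (SE, edgeR adjusted p = 0.145). Another LOG8-like gene, CSS038947 (chosen after its values were seen), rose in YH9 by 1.12 ± 0.412 log2 (SE, edgeR adjusted p = 0.047). The call was lost with any 1 of 13 libraries left out, namely SCZ_NA replicates 2 and 3, SCZ_CA replicate 3, SCZ_DA replicates 1 and 2, each YH9_NA and YH9_DA library and YH9_CA replicates 2 and 3 (edgeR adjusted p up to 0.162). LOG1, CSS024592, rose in SCZ, with 11.4, 2.61 and 3.13 FPKM in the SCZ_CA libraries, against 1.72, 1.61 and 1.66 FPKM in the SCZ_NA libraries. The log2 fold change was 1.85 ± 0.549 (SE, edgeR adjusted p = 0.0139), and this rested on SCZ_CA replicate 1, without which it was 0.97 (edgeR adjusted p = 0.126). It fell after de-acclimation in both cultivars, to 0.553, 1.47 and 2.02 FPKM in SCZ_DA and 1.09, 1.64 and 1.11 FPKM in YH9_DA, at -2.21 ± 0.557 log2 (SE, edgeR adjusted p = 0.00631) and -2.19 ± 0.557 log2 (SE, edgeR adjusted p = 0.00813), the SCZ value being -1.33 log2 (edgeR adjusted p = 0.0473) without SCZ_CA replicate 1.

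Cytokinin dehydrogenases, which degrade cytokinins, fell at the CA stage for 2 of the 3 genes in both cultivars and rose again after de-acclimation. Beside them, 19.1% of all loci in SCZ and 14.2% in YH9 fell at the CA stage. The shares that rose from CA to DA were 15.6% and 13.1%. CKX7, CSS037773, had 6.49, 5.05 and 3.78 FPKM in the SCZ_CA libraries, against 47, 40.6 and 33.4 FPKM in the SCZ_NA libraries. In YH9, CSS037773 had 4.68, 6.63 and 7.27 FPKM in the YH9_CA libraries, against 54.2, 67 and 47.1 FPKM in the YH9_NA libraries. The CA libraries lay far below the NA libraries with little scatter, and the log2 fold changes of -2.9 ± 0.269 (SE, edgeR adjusted p = 2.81e-06) in SCZ and -3.22 ± 0.273 (SE, edgeR adjusted p = 2.52e-06) in YH9 were kept with each library left out and under every alternative tried. At the DA stage CKX7 was at 35.7, 42.7 and 30.2 FPKM in SCZ and 80.2, 63.8 and 58 FPKM in YH9, higher than at the CA stage by 2.65 ± 0.266 log2 (SE, edgeR adjusted p = 7.1e-06) and 3.29 ± 0.274 log2 (SE, edgeR adjusted p = 3.53e-06), and neither DA vs. NA comparison was called, at -0.25 ± 0.25 log2 (SE, edgeR adjusted p = 0.639) in SCZ and 0.07 ± 0.25 log2 (SE, edgeR adjusted p = 0.978) in YH9. CKX5, CSS038372, chosen after its values were seen, was lower throughout, with 0.137, 0.547 and 0.0383 FPKM in the SCZ_CA libraries, against 4.01, 2.21 and 2.2 FPKM in the SCZ_NA libraries. In YH9, CSS038372 had 0.366, 0.219 and 0.269 FPKM in the YH9_CA libraries, against 0.809, 1.41 and 1.19 FPKM in the YH9_NA libraries. No CA library reached 1 FPKM, so it is a member through its NA and DA levels alone. It fell without overlap, with log2 fold changes of -3.53 ± 0.745 (SE, edgeR adjusted p = 0.0016) in SCZ and -2.0 ± 0.707 (SE, edgeR adjusted p = 0.0403) in YH9. Without SCZ_CA replicate 2 the SCZ value was -4.97 log2 (edgeR adjusted p = 1.93e-04), and the YH9 call was lost without any 1 of the YH9_NA and YH9_CA libraries or YH9_DA replicate 3 (edgeR adjusted p of 0.0515 to 0.119). CKX6, CSS029583, annotated on scaffold 2731 at bases 230582 to 233203 on the minus strand, passed the floor in 4 libraries and was called in no comparison. The 3 genes summed to 4.08 to 8.11 FPKM in SCZ_CA, against 36.6 to 51.3 FPKM in SCZ_NA, and to 5.89 to 7.97 FPKM in YH9_CA, against 48.6 to 68.7 FPKM in YH9_NA, most of it CKX7, the other genes summing to at most 4.24 FPKM in any of these libraries.

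Of the 5 histidine-containing phosphotransfer proteins, which carry the phosphate from receptor to response regulator, 1 fell in SCZ_CA vs. SCZ_NA, 3 fell in YH9_CA vs. YH9_NA, and none rose. All loci had shares of 19.1% lower and 15% higher in SCZ, and 14.2% lower and 11.7% higher in YH9. CSS035732, chosen after its values were seen, fell in both at low levels, with 0, 0 and 0.277 FPKM in the SCZ_CA libraries, against 2.36, 1.31 and 0.884 FPKM in the SCZ_NA libraries. In YH9, CSS035732 had 0, 0.20 and 0.253 FPKM in the YH9_CA libraries, against 0.292, 6.92 and 1.39 FPKM in the YH9_NA libraries. As with CKX5, membership came from NA and DA libraries alone. The CA libraries lay below the NA libraries in both, at -3.77 ± 1.47 log2 (SE, edgeR adjusted p = 0.0498) in SCZ and -4.1 ± 1.47 log2 (SE, edgeR adjusted p = 0.0432) in YH9. Leaving out 13 of 18 libraries in turn lost the SCZ call (all but SCZ_DA replicate 2, YH9_NA replicates 1 and 2, YH9_CA replicate 1 and SCZ_CA replicate 3, without which SCZ_CA is listed at 0, with an edgeR adjusted p of up to 0.127). Leaving out 9 lost the YH9 call (SCZ_DA replicate 3, YH9_NA replicates 2 and 3 and each YH9_CA and YH9_DA library), the edgeR adjusted p reaching 0.25 without YH9_NA replicate 2. The locus listed as CSS034508 and CSS034507 fuses a phosphotransfer gene with a gene of another family. In the order listed, CSS034508 is described as Metridin-like ShK toxin and CSS034507 as the phosphotransfer protein. The fused locus had 4.45, 4.61 and 4.62 FPKM in the YH9_CA libraries, against 10.1, 12 and 11.7 FPKM in the YH9_NA libraries. It fell with a log2 fold change of -1.33 ± 0.318 (SE, edgeR adjusted p = 0.00508). Its SCZ libraries had 4.94, 3.08 and 9.15 FPKM in SCZ_CA, against 10.9, 13.3 and 14.7 FPKM in SCZ_NA, and at -0.98 ± 0.315 log2 (SE, edgeR adjusted p = 0.0204) stayed just under a 2-fold change. The groups did not overlap in either cultivar, and reads of the fused genes cannot be told apart. It rose after de-acclimation, to 22.1, 19.1 and 26.7 FPKM in SCZ_DA and 13.6, 16.1 and 14.1 FPKM in YH9_DA, by 1.75 ± 0.321 log2 (SE, edgeR adjusted p = 7.09e-04) and 1.53 ± 0.319 log2 (SE, edgeR adjusted p = 0.00236), the SCZ value being 2.42 log2 (edgeR adjusted p = 1.14e-05) without SCZ_CA replicate 3. CSS014250 fell in YH9, with 3.82, 2.01 and 2.87 FPKM in the YH9_CA libraries, against 6.66, 7.73 and 6.52 FPKM in the YH9_NA libraries. Its log2 fold change was -1.3 ± 0.45 (SE, edgeR adjusted p = 0.0375). This call was lost without YH9_NA replicates 1, 2 or 3 or YH9_CA replicates 2 or 3 (edgeR adjusted p = 0.0783, 0.092, 0.0557, 0.133 and 0.0945). CSS007916, the most abundant by mean FPKM, was scattered, with 0.766, 8.92 and 14.6 FPKM in YH9_CA and 5.57, 38.8 and 2.51 FPKM in YH9_NA. It was called in SCZ_DA vs. SCZ_CA, with 6.82, 23.2 and 4.44 FPKM in the SCZ_DA libraries, against 1.54, 0.794 and 1.22 FPKM in the SCZ_CA libraries. This gave a log2 fold change of 3.03 ± 1.03 (SE, edgeR adjusted p = 0.0303). It was lost without SCZ_CA replicates 1, 2 or 3 (edgeR adjusted p = 0.0633, 0.0902 and 0.0651) or without SCZ_DA replicate 2, at 2.08 log2 (edgeR adjusted p = 0.14).

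The 7 DNA-binding response regulators switch on cytokinin-responsive genes, and 1 rose and 1 fell in each CA vs. NA comparison. Across all loci, 15% rose and 19.1% fell in SCZ, and 11.7% rose and 14.2% fell in YH9. ORR21, CSS048546, the most abundant of them, rose in both cultivars, with 142, 99.6 and 114 FPKM in the SCZ_CA libraries, against 22.6, 39.8 and 37.6 FPKM in the SCZ_NA libraries. In YH9, CSS048546 had 94.6, 109 and 138 FPKM in the YH9_CA libraries, against 44.6, 47.7 and 54.1 FPKM in the YH9_NA libraries. Every CA library was above every NA library, and the log2 fold changes were 2.0 ± 0.199 (SE, edgeR adjusted p = 4.74e-06) in SCZ and 1.19 ± 0.194 (SE, edgeR adjusted p = 3.53e-04) in YH9, with a difference of 0.81 ± 0.271 (SE, edgeR adjusted p = 0.118) that did not pass the threshold. At the DA stage it was at 43.2, 41.8 and 29.5 FPKM in SCZ and 56.3, 57.5 and 56 FPKM in YH9, with log2 fold changes against the CA stage of -1.82 ± 0.197 (SE, edgeR adjusted p = 1.25e-05) and -1.15 ± 0.194 (SE, edgeR adjusted p = 5.15e-04). All 4 calls were kept with each library left out. The summed level of the 7 regulators was 134.1 to 167.8 FPKM in SCZ_CA, against 51 to 81.9 FPKM in SCZ_NA, and 131 to 176.7 FPKM in YH9_CA, against 77.8 to 102.2 FPKM in YH9_NA. ORR21 carried these sums, since the other 6 summed to 26 to 34.5 FPKM in SCZ_CA, against 28.5 to 42.1 FPKM in SCZ_NA, and to 36.4 to 38.9 FPKM in YH9_CA, against 33.2 to 48.1 FPKM in YH9_NA, overlapping in both cultivars.

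ARR12, CSS015965, was the other member whose CA vs. NA change differed between the cultivars. It fell in SCZ, with 1.52, 1.22 and 1.19 FPKM in the SCZ_CA libraries, against 3.58, 5.66 and 4.66 FPKM in the SCZ_NA libraries. On the log2 scale this was -1.66 ± 0.202 (SE, edgeR adjusted p = 2.18e-05). In YH9, CSS015965 had 2.69, 3.16 and 3.36 FPKM in the YH9_CA libraries, against 2.94, 4.59 and 5.2 FPKM in the YH9_NA libraries. That is a log2 fold change of -0.49 ± 0.197 (SE, edgeR adjusted p = 0.0698). The SCZ groups were apart and the YH9 groups overlapped, and the SCZ change minus the YH9 change was -1.18 ± 0.279 log2 (SE, edgeR adjusted p = 0.0381). That call was lost when any 1 of 10 libraries was left out, namely SCZ_NA replicates 2 and 3, SCZ_CA replicate 3, YH9_NA replicates 1 and 2, each YH9_CA library and YH9_DA replicates 1 and 3, with an edgeR adjusted p of up to 0.085 (without YH9_CA replicate 2). It did not hold either with no FPKM filter, with a replicate block, in both limma fits on log2 FPKM and with the spread of only the groups compared. After de-acclimation it rose in both cultivars, to 5.93, 6.34 and 6.54 FPKM in SCZ_DA and 8.24, 5.7 and 7.16 FPKM in YH9_DA, by 2.07 ± 0.205 log2 (SE, edgeR adjusted p = 6.44e-06) and 1.05 ± 0.199 log2 (SE, edgeR adjusted p = 0.00127), the YH9 value coming under 2-fold without YH9_CA replicate 1, at 0.97, or YH9_DA replicate 1, at 0.94.

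ARR1, CSS039953, was the other member higher in SCZ_DA vs. SCZ_NA, with 27.7, 56.3 and 50.1 FPKM in the SCZ_DA libraries, against 14, 14.4 and 18.2 FPKM in the SCZ_NA libraries. The fold change was, on the log2 scale, 1.47 ± 0.386 (SE, edgeR adjusted p = 0.0463). The groups did not overlap, yet the call was lost when any 1 of 15 libraries was left out, that is all but SCZ_CA replicates 1 and 2 and SCZ_DA replicate 1, with an edgeR adjusted p of up to 0.173 (without SCZ_DA replicate 3). Against SCZ_CA, at 7.14, 26.5 and 12.2 FPKM, the rise was 1.35 ± 0.384 log2 (SE, edgeR adjusted p = 0.0127), which was 1.96 log2 (edgeR adjusted p = 0.00119) without SCZ_CA replicate 2 and came under 2-fold without SCZ_CA replicate 1, at 0.99 log2 (edgeR adjusted p = 0.0346). ORR26, CSS007194, fell in YH9, with 2.91, 4.26 and 4.04 FPKM in the YH9_CA libraries, against 5.92, 9.92 and 7.73 FPKM in the YH9_NA libraries. The log2 fold change was -1.1 ± 0.354 (SE, edgeR adjusted p = 0.0265). That call was lost without YH9_NA replicate 2, at -0.92 log2 (edgeR adjusted p = 0.0974), YH9_CA replicate 1, at -0.96 log2 (edgeR adjusted p = 0.096), or YH9_CA replicate 3, at -1.14 log2 (edgeR adjusted p = 0.0598). The other 3 DNA-binding members, CSS046508, CSS021662 (scaffold 157, bases 605262 to 610680, plus strand) and CSS047254 (scaffold 3244, bases 70122 to 73654, minus strand), were called in no comparison. Of the 3 short response regulators, the ARR9 gene CSS030195 fell in SCZ, with 0.187, 0.0501 and 1.01 FPKM in the SCZ_CA libraries, against 2.51, 11.1 and 5.43 FPKM in the SCZ_NA libraries. Its log2 fold change was -3.58 ± 0.922 (SE, edgeR adjusted p = 0.00608), or -5.55 (edgeR adjusted p = 4.93e-04) without SCZ_CA replicate 3, while its YH9 change was -2.01 ± 0.879 (SE, edgeR adjusted p = 0.0917). The other ARR9 gene, CSS021031, was called in no comparison. ORR9-like CSS006529 (scaffold 3364, bases 395889 to 398817, plus strand), chosen after its values were seen, was listed at 0 in all YH9_DA libraries. It was at least 25.1-fold lower than in YH9_CA with YH9_DA set to 3 counts over the group (edgeR adjusted p = 0.0146). Its YH9_CA libraries were themselves low, at 0.308 to 0.734 FPKM. CSS006529 reached 1 FPKM in SCZ_NA and SCZ_CA libraries alone. A low DA level was thus part of its choice, and its fall is a description.

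**Figure D4:**
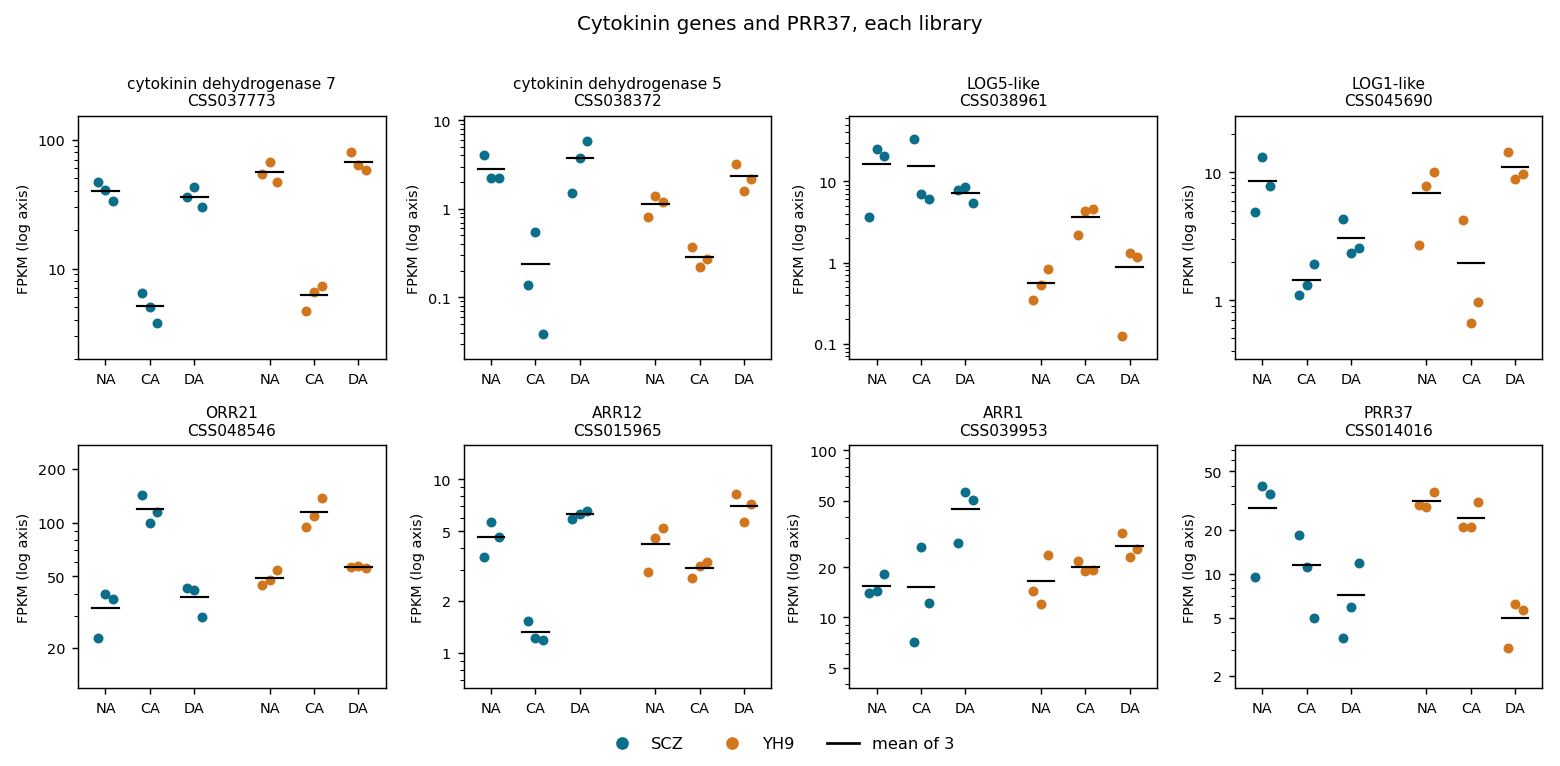
FPKM on a log axis (y) in every library of the 3 stages (x) for 8 genes, which are CKX and LOG genes, DNA-binding response regulators and the clock gene PRR37, with the SCZ stages left of the YH9 stages; points are libraries and lines the mean of 3. CKX7 CSS037773 is at 3.78 to 7.27 FPKM in the 6 CA libraries and at 30.2 FPKM or more in all others, while ORR21 CSS048546 is at 94.6 FPKM or more in the CA libraries and at 57.5 FPKM or less in all others.

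PRR37, CSS014016, a component of the circadian clock, was the member that was called in both DA vs. NA comparisons, and was called in neither CA vs. NA comparison. It had 3.62, 5.93 and 11.8 FPKM in the SCZ_DA libraries, against 9.45, 39.6 and 35.3 FPKM in the SCZ_NA libraries. In YH9, CSS014016 had 3.13, 6.16 and 5.61 FPKM in the YH9_DA libraries, against 29.5, 28.4 and 36.3 FPKM in the YH9_NA libraries. The SCZ groups overlapped through SCZ_NA replicate 1 and the YH9 groups did not, with log2 fold changes of -1.93 ± 0.496 (SE, edgeR adjusted p = 0.0428) in SCZ and -2.83 ± 0.513 (SE, edgeR adjusted p = 0.0228) in YH9. The SCZ call was lost when any 1 of 13 libraries was left out, namely SCZ_NA replicates 2 and 3, each SCZ_DA library except replicate 3, whose removal gave -2.55 log2 (edgeR adjusted p = 0.0427), and each YH9 library (edgeR adjusted p up to 0.124). The YH9 call was lost without YH9_NA replicates 1 or 3 or any 1 of the YH9_DA libraries (edgeR adjusted p = 0.0675, 0.0586, 0.133, 0.105 and 0.127). Against the CA stage it fell in YH9, where YH9_CA had 20.9, 20.8 and 30.9 FPKM, at -2.42 ± 0.505 log2 (SE, edgeR adjusted p = 0.00231), and the SCZ change was -0.82 ± 0.483 log2 (SE, edgeR adjusted p = 0.198). The labels give no hour of sampling, and clock genes cycle over the day.

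Over all members, 13 rose and 5 fell in SCZ_DA vs. SCZ_CA, 36% of the members against 29.1% of all loci (15.6% higher and 13.5% lower). In YH9_DA vs. YH9_CA 12 rose and 11 fell, 46% against 23.5% (13.1% higher and 10.4% lower). Because these comparisons share the CA libraries with CA vs. NA, their values stand side by side here and no agreement between them is read as a result. The 6 members with no CA library at 1 FPKM were CSS004415, CSS005531, CSS021083, CSS034886, CSS035732 and CSS038372. For them the member rule favoured a rise from CA to DA, and some of them are among the members counted as rising. CSS006529 reached 1 FPKM in no DA library, so for it the rule favoured a fall. Against the NA stage, 2 members rose and 1 fell in SCZ_DA, 6% against 3.03% of all loci (1.45% higher and 1.58% lower). In YH9_DA 1 fell, 2% against 0.376% (0.0551% higher and 0.32% lower). An unadjusted p under 0.05 was reached by 12 members (24%) in each of the DA vs. NA comparisons, against 19.8% of all loci in SCZ and 9.76% in YH9. Between the cultivars, 3 members were higher and 1 lower in SCZ_NA vs. YH9_NA, 8% against 19.2% of all loci (9.9% higher and 9.29% lower). In SCZ_CA vs. YH9_CA, 4 were higher and 8 lower, 24% against 27.3% (12.8% higher and 14.4% lower). In SCZ_DA vs. YH9_DA, 7 were higher and 3 lower, 20% against 24% (11.4% higher and 12.6% lower). In the edgeR test over all libraries the members' share was thus below the background in the 3 comparisons of the cultivars at a stage. With DESeq2 it was 34% against 26.8% in SCZ_DA vs. YH9_DA, above the background, so the order of the shares there depends on the fit. The test of the difference between the cultivars' CA vs. NA changes called 2 members, the DELLA gene CSS031427 and ARR12, both with a negative difference, which is 4% against 2.52% of all loci (1.25% positive and 1.27% negative). That of the DA vs. CA changes called 0 members in edgeR, against 1.72% of all loci (0.796% positive and 0.924% negative), while 9 members (18%) had an unadjusted p under 0.05, against 16.5% of all loci, and DESeq2 called 2 (4%, against 6.24%).

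The members were not equally well measured. In all 18 libraries, 23 members were at or over 1 FPKM, while 11 reached it in fewer than 9 libraries, 6 in 1 cultivar alone, and 7 had a mean under 1 FPKM. In the 6 that reached the floor in 1 cultivar alone (CSS005980, CSS006529, CSS019001, CSS021083, CSS039844 and CSS039845), the member rule favoured a difference between cultivars. It did not force one, since CSS039844 was called in no comparison. These members are counted above but not read as support. Just inside the floor stood CSS039844 (3 libraries, highest 2.44 FPKM), CSS004415 and CSS029583 (4 libraries each, highest 2.64 and 2.85 FPKM), and just outside it CSS018431 and CSS046987 (2 libraries each, highest 1.8 and 1.43 FPKM). Several members carry the same description, and how reads shared by near-identical copies were divided is not given in the sources used here, so single members of such families are uncertain. Scaffold positions were given for 6 members and none for the other 44.

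Genes of the same pathways outside the rule were read from lists by description. Over all loci, 15% rose and 19.1% fell in SCZ_CA vs. SCZ_NA, and 11.7% rose and 14.2% fell in YH9_CA vs. YH9_NA. No list was tested against these shares. Of the 5 brassinosteroid synthesis genes measured, 1 rose and 3 fell in SCZ_CA vs. SCZ_NA, and 3 fell in YH9_CA vs. YH9_NA. Cytochrome P450 90A2, CSS012985, a brassinosteroid synthesis enzyme, had 17.6, 6.29 and 11.2 FPKM in the SCZ_CA libraries, against 34.5, 57 and 36.8 FPKM in the SCZ_NA libraries. In YH9, CSS012985 had 22.7, 34.1 and 27.7 FPKM in the YH9_CA libraries, against 69, 97.5 and 58.7 FPKM in the YH9_NA libraries, and it was lower at the CA stage in both. Its log2 fold changes were -1.73 ± 0.362 (SE, edgeR adjusted p = 0.00156) in SCZ and -1.45 ± 0.359 (SE, edgeR adjusted p = 0.00621) in YH9. The CA and NA libraries did not overlap, and DET2-like steroid reductase CSS025997 fell at a lower level, at -3.94 ± 0.474 log2 (SE, edgeR adjusted p = 2.02e-05) in SCZ and -1.55 ± 0.422 log2 (SE, edgeR adjusted p = 0.0111) in YH9. Of 12 genes of cytokinin synthesis, transport and perception, SCZ had 2 higher and 3 lower and YH9 had 1 higher. Probable purine permease 11, CSS000345, whose family includes cytokinin transporters, had 25, 18.8 and 15.9 FPKM in the SCZ_CA libraries, against 4.53, 5.52 and 5.85 FPKM in the SCZ_NA libraries. In YH9, CSS000345 had 29.4, 30.0 and 27.3 FPKM in the YH9_CA libraries, against 6.1, 4.95 and 6.2 FPKM in the YH9_NA libraries. It rose without overlap, by 2.04 ± 0.196 log2 (SE, edgeR adjusted p = 3.62e-06) in SCZ and 2.3 ± 0.198 log2 (SE, edgeR adjusted p = 2.83e-06) in YH9. Of 4 gibberellin precursor genes none passed in SCZ and 1, ent-kaurene oxidase CSS006415, rose in YH9, at 3.42 ± 0.717 log2 (SE, edgeR adjusted p = 0.00212), beside 1.37 ± 0.662 log2 (SE, edgeR adjusted p = 0.109) in SCZ. Of 12 shaggy-related kinases, some of which restrain brassinosteroid signalling, 1 was higher and 1 lower in SCZ and 1 higher in YH9. Of 3 phytochrome-interacting factors, which DELLA proteins hold back, PIF3 CSS003639 rose in SCZ, at 1.6 ± 0.216 log2 (SE, edgeR adjusted p = 4.96e-05), and stayed under a 2-fold change in YH9, at 0.75 ± 0.212 log2 (SE, edgeR adjusted p = 0.013). Named genes outside the members were chosen after their values were seen.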

How the data were processed

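RNA was sequenced from the leaves of 18 samples, 3 per cultivar and stage, with a stranded dUTP kit and unique molecular identifiers. Per the submitters' processing notes, reads were trimmed with cutadapt 1.9, aligned with HISAT2 2.2.1, deduplicated with UMI-tools and assembled with StringTie 2.1.6. The mouse build those notes name cannot be that of a tea genome, and the study's methods name the tea reference genome. The authors deposited 1 table with estimated counts per locus and with FPKM, which divides by transcript length and library size. The counting program is not given in the sources used here. Of the nonzero counts under 40, 32.25% were multiples of 4, so they are not plain read counts.

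The deposited estimated counts, which are whole numbers, were tested with edgeR 4.0.16 (R 4.3.3, limma 3.58.1). The quasi-likelihood F test was used with TMM factors (0.795 to 1.158), 1 mean per group and 1 estimate of the spread over all 18 libraries. The test ran on the 29019 loci that passed the FPKM floor of the member rule (1 FPKM, 3 libraries), p-values were Benjamini-Hochberg adjusted over all of them, and a call needed an adjusted p under 0.05 and a change of at least 2-fold. The test was tested on simulated data first. Levels are given as FPKM per library, or as mean ± SD with n = 3.

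The members and the gene lists were chosen with earlier results of these data known. Named with values by a fixed rule were, in each role, the most abundant member and up to 3 members called at CA vs. NA with at least 5 FPKM in the higher group, every member called in a DA vs. NA comparison or in a test of the cultivars' difference, and the member with the largest called difference between the cultivars at a stage. Other members given with fold changes were chosen after their values were seen and are marked so. Alternatives were RLE scaling, no FPKM filter, the adjusted p alone, a replicate block, limma on log2(FPKM + 1) and log2(FPKM + 0.1), a spread from only the groups compared, DESeq2 1.42.0 and each library left out in turn. Figures were drawn with matplotlib 3.10.9. No sequence of the members was used here.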

Additional observations from a re-analysis of the deposited data

Results flagged for a closer look

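In 2 members the change at the CA stage differed between the cultivars by the test of the difference itself. The DELLA gene CSS031427 had a log2 fold change of -0.78 in SCZ_CA vs. SCZ_NA and 1.70 in YH9_CA vs. YH9_NA, a difference of -2.48 ± 0.599 (SE, edgeR adjusted p = 0.0407). The response regulator ARR12, CSS015965, had -1.66 in SCZ and -0.49 in YH9, a difference of -1.18 ± 0.279 (SE, edgeR adjusted p = 0.0381). Leaving out 1 library in turn lost the call of CSS031427 in 12 of 18 cases and that of CSS015965 in 10 of 18, the libraries being named in the report. Both calls were also lost with no FPKM filter (edgeR adjusted p = 0.0506 and 0.0709), with a replicate block (edgeR adjusted p = 0.0681 and 0.0606) and with the spread of only the groups compared (edgeR adjusted p = 0.078 and 0.13). That of CSS015965 was lost in limma on log2(FPKM + 1) and on log2(FPKM + 0.1) as well (limma adjusted p = 0.0765 and 0.0613), while both were kept with RLE scaling and in DESeq2. GA 2-oxidase CSS038297 was just over the threshold in the main fit. Its difference was called with RLE scaling, a replicate block, both limma fits and DESeq2. It was not called with no FPKM filter or with the spread of only the groups compared. Leaving out SCZ_NA replicates 2 or 3, YH9_NA replicates 1 or 2 or any 1 of the SCZ_CA, SCZ_DA and YH9_CA libraries did not give the call either.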

How the results depend on the processing

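No member changed direction in a called result under any alternative. Of 112 called results, 61 were kept with every library left out in turn and 49 under every alternative. Calls lost numbered 34 under limma on log2(FPKM + 1), 32 with the spread of only the groups compared, 18 under limma on log2(FPKM + 0.1), 14 with no FPKM filter, 3 with RLE scaling, 2 in DESeq2 and 0 with the adjusted p alone. Counts that moved are given with the members' share and, after a slash, that of all loci in the same fit. With the spread of only the groups compared, the members called were 10 instead of 18 in SCZ_CA vs. SCZ_NA (20% / 20.5%), 11 instead of 18 in SCZ_DA vs. SCZ_CA (22% / 18%), 1 instead of 3 in SCZ_DA vs. SCZ_NA (2% / 0.152%), 2 instead of 1 in YH9_DA vs. YH9_NA (4% / 1.64%), 7 instead of 4 in SCZ_NA vs. YH9_NA (14% / 16.9%), 6 instead of 12 in SCZ_CA vs. YH9_CA (12% / 20.3%) and 0 instead of 2 in the test of the cultivars' CA vs. NA difference (0% / 0.958%). DESeq2 called 2 in YH9_DA vs. YH9_NA (4% / 1.5%), 8 in SCZ_NA vs. YH9_NA (16% / 22%), 17 instead of 10 in SCZ_DA vs. YH9_DA (34% / 26.8%), and 4 and 2 (instead of 2 and 0) in the tests of the cultivars' difference in CA vs. NA (8% / 8.06%) and in DA vs. CA (4% / 6.24%). With no FPKM filter, which adds loci below the floor to the background, 1 member was called in SCZ_DA vs. SCZ_NA (2% / 1.64%) and 0 in the CA vs. NA difference (0% / 1.41%). On log2(FPKM + 1), limma called 4 and 2 members in the differences of CA vs. NA (8% / 5.71%) and of DA vs. CA (4% / 5.6%), and on log2(FPKM + 0.1) it called 1 in the difference of DA vs. CA (2% / 2.86%). The causes were not tested.

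Leaving out 1 library in turn gave 17 to 20 members called in SCZ_CA vs. SCZ_NA, 12 to 23 in YH9_CA vs. YH9_NA (12 without YH9_NA replicate 2, 13 without YH9_CA replicate 2 or 3), 13 to 19 in SCZ_DA vs. SCZ_CA, 17 to 25 in YH9_DA vs. YH9_CA, 1 to 4 in SCZ_DA vs. SCZ_NA, 0 to 1 in YH9_DA vs. YH9_NA, 3 to 8 in SCZ_NA vs. YH9_NA (8 without SCZ_CA replicate 2), 6 to 12 in SCZ_CA vs. YH9_CA (6 without any 1 of the YH9_CA libraries), 6 to 13 in SCZ_DA vs. YH9_DA (6 without YH9_DA replicate 2 or 3), 0 to 4 in the difference of CA vs. NA and 0 to 2 in that of DA vs. CA. Without SCZ_NA replicate 1 and without SCZ_CA replicate 2, the count in SCZ_CA vs. SCZ_NA was 18 and 20.

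Deviations of same-numbered libraries correlated at -0.2013 to 0.3786 over 27 pairs, 7 of which were over 0.1, so no pairing was seen throughout. In SCZ_DA vs. SCZ_NA (0.105, 0.379 and 0.052) and SCZ_DA vs. SCZ_CA (0.0796, 0.151 and 0.143), the correlation was positive for every replicate number. So it was in SCZ_NA vs. YH9_NA (0.18, 0.0443 and 0.0268), which are different cultivars. Deviations cancel out within a group, so a lower mean correlation with the other numbers follows from a positive value and adds nothing. In SCZ_CA vs. SCZ_NA the correlation was positive for replicate 2 alone, so whether SCZ libraries were paired is not settled. A replicate block lost 15 of the 112 calls and called 1 member in SCZ_DA vs. SCZ_NA, CSS025179, and 1 in the CA vs. NA difference. That member was GA 2-oxidase CSS038297, and CSS031427 and CSS015965 were both lost.

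On log2(FPKM + 1) the median over all loci moved to -0.142 in SCZ_CA vs. SCZ_NA, 0.144 in SCZ_DA vs. SCZ_CA, 0.118 in YH9_DA vs. YH9_CA, 0.139 in YH9_DA vs. YH9_NA, -0.174 in SCZ_CA vs. YH9_CA, -0.133 in SCZ_DA vs. YH9_DA and -0.149 in the CA vs. NA difference, so changes there are relative to these shifts. Higher calls were then 65.3% instead of 53.5% of all calls in SCZ_DA vs. SCZ_CA, 65.9% instead of 55.6% in YH9_DA vs. YH9_CA, 63.8% instead of 14.7% in YH9_DA vs. YH9_NA (39.1% in DESeq2), 34.8% instead of 47.1% in SCZ_CA vs. YH9_CA and 36.4% instead of 49.5% in the CA vs. NA difference.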
